A study of Mus musculus with 77 samples.

Results

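The genes of the cytosolic ribosomal proteins were followed through the first wave of mouse spermatogenesis, in germ cells and in Sertoli cells. They were chosen by symbol from the 19938 genes that could be tested: every symbol of the form Rpl or Rps with a number, an optional letter suffix and an optional final l, together with Rplp0, Rplp1, Rplp2 and Rpsa. This gave 69 genes. Of these, 61 were taken by symbol as ribosomal protein genes, 38 of the large and 23 of the small subunit. Not every one of the 61 is a protein-coding symbol of RefSeq. The remaining 8 were taken as other proteins with matching symbols (the S6 kinases Rps6ka3, Rps6ka5, Rps6ka6 and Rps6kb2, the kinase-like Rps6kc1 and Rps6kl1, and Rps19bp1 and Rps23rg1). Rps23rg1 was set apart from the ribosomal proteins after the list of matching symbols had been seen. The 61 comprised 54 canonical genes and 7 paralogs (Rpl3l, Rpl7l1, Rpl10l, Rpl32l, Rpl39l, Rps4l and Rps27l). Rpl32l was added to the paralogs by hand, outside the list drawn up for them. A further 27 protein-coding ribosomal protein symbols of RefSeq were not tested, 20 of them because their probe sets are listed with several genes; Rpl39, the X-linked counterpart of Rpl39l, was among those 20.

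RiboTag mice carry an Rpl22 allele that gains an HA epitope after Cre recombination, so that ribosomes with their mRNA can be precipitated from the cells in which Cre has acted. In Stra8-cre and Ngn3-cre mice these are germ cells, and in Amh-cre mice Sertoli cells, the somatic nurse cells of the seminiferous tubule. The Stra8-cre and Amh-cre mice were FVB/N and the Ngn3-cre mice C57BL/6, so Cre line and strain cannot be told apart for Ngn3-cre. All mice were neonatal, of an age in days that is not given in the sources used here. They received the drug BDAD, which blocks the synthesis of retinoic acid, for 9 days and were killed then (time 0) or at intervals after an injection of retinoic acid, the signal that sends spermatogonia into differentiation. Times were 4, 12, 24 and 48 h and 4, 6 and 8 d for Stra8-cre and Amh-cre, and 4 h for Ngn3-cre. Precipitated RNA (IP) and RNA of the whole testis (total) were hybridised to 1-colour gene arrays. There were 16 IP and 23 total arrays for Stra8-cre, 4 and 4 for Ngn3-cre, and 16 and 14 for Amh-cre, 77 in all in 35 groups, mostly with 2 arrays a group. Total RNA of Amh-cre testes at 4 h was not analysed here. No group received BDAD without retinoic acid and was killed later, so effects of retinoic acid, of the injection, of age and of the end of BDAD cannot be told apart in the time courses. Whether replicates are different animals is not stated, so p-values measure only the spread between these samples, which may be technical.

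A ribosome holds a single copy of most of its proteins, and mammalian cells make them in matched amounts. Ribosomal protein mRNAs begin with a C followed by a run of pyrimidines, the 5′ terminal oligopyrimidine (TOP) tract, through which mTORC1 signalling and the protein Larp1 adjust their translation as a group. The P-stalk proteins Rplp0, Rplp1 and Rplp2 recruit translation factors to the large subunit, and Rpsa is a small-subunit protein. Some ribosomal proteins have a copy with restricted expression: Rpl10l, Rpl39l and Rps4l are autosomal relatives of the X-linked Rpl10, Rpl39 and Rps4x, and the X chromosome is silenced in male germ cells during meiosis.

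The fractions carried the markers of their labels. Of 19 germ cell and piRNA genes, 19 were higher in Stra8-cre IP and 19 in Ngn3-cre IP than in total RNA, and 19 were lower in Amh-cre IP. Of 20 Sertoli genes, 19 were higher in Amh-cre IP and 19 were lower in Stra8-cre IP. No marker was at 0, since array signals have a floor. The mean log2 level of the germ cell list was 11.06 to 11.66 over the Stra8-cre IP arrays and 7.90 to 8.93 over the Amh-cre IP arrays. Markers of Leydig cells, peritubular myoid cells, macrophages and endothelium were mostly lower in all 3 kinds of IP. For macrophages this held for 8, 8 and 9 of 9 genes in Stra8-cre, Ngn3-cre and Amh-cre. The Stra8-cre IP array of 4 d replicate 1 stood apart in the Sertoli list (10.94, against 9.02 to 10.36 on the other Stra8-cre IP arrays). In Stra8-cre total RNA 3 arrays (4 h replicate 1, 24 h replicates 3 and 4) had a narrow spread over all genes (SD 1.69 to 1.71 log2 units, against 1.81 to 1.96 on the other total RNA arrays of that line). The Amh-cre arrays labelled 4 h and 4 d went against their labels in Rarb, a gene induced directly by retinoic acid. It was at 7.18 and 7.16 in IP labelled 4 h, close to 7.07 and 7.02 at time 0, and at 8.58 and 8.56 in IP labelled 4 d, while Cyp26a1, the enzyme that degrades retinoic acid, was at 8.28 and 8.18 in the latter. Cyp26a1 was as high or higher on some later arrays too (8.22 and 9.93 in IP at 8 d), so its level is not particular to the arrays labelled 4 d. These arrays are called by their labels. Without them the 8 counts of ribosomal protein genes called in Amh-cre IP against total RNA, in Stra8-cre against Amh-cre, and in the 2 Amh-cre courses stayed within 1.5 times their value.

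Values are log2 of the deposited intensity, and differences are log2 differences between group means with their standard errors (SE) from limma. A gene was called where its adjusted p, over all 19938 genes, was under 0.05. The median log2 signal of the 61 ribosomal protein genes was 11.88, against 8.54 over all genes, and 45 of the 61 lay above the 90th percentile of all genes, so most were measured near the upper end of the signal range. Probe sets respond unequally, and no gene's level is set against another's here. The probe set with the highest mean was used for each gene; 39 of the 61 genes had several probe sets, which can share sequence with the many processed pseudogenes of this family.

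RefSeq start sites (GRCm38.p6) were searched for pyrimidine motifs. Start entries were matched for 49 of the 61 genes, 8 of them with several starts. The motifs CTTTC and CTTTT were searched on both strands from 50 bases before to 50 bases after the start. Neighbouring matches of the 2 motifs can share a base. At least 1 of them lay on the gene's own strand in 28 of the 49 genes, or 57.1%, against 24.4% of all 27025 genes with an entry. On the other strand, the figures were 20.4% and 23.7%. CTTTC alone was found on the gene strand in 42.9% of the ribosomal protein genes and 14.6% of all genes, and CTTTT in 28.6% and 12.6%. The windows below run from 15 bases before the start to 15 after it, 5′ to 3′ on the gene's strand, with the 2 motifs in capitals. No start entry was matched for Rps4l. Windows are shown for selected members, without those of Rplp0 (no motif) and Rpl28 (CTTTC).
Rpl10 (chrX:74270801-74270830, +): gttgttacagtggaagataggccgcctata
Rpl10l (chr12:66284387-66284416, -): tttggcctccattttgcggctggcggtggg
Rpl39l (chr16:10170213-10170242, +): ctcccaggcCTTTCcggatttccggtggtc
Rps4x (chrX:102189377-102189406, -): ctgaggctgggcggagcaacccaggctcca
Rpl12 (chr2:32961697-32961726, +): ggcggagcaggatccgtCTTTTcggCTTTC
Rps12 (chr10:23787195-23787224, -): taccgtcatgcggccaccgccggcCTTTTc
Rps15a (chr7:118116133-118116162, -): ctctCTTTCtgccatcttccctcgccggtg
Rplp2 (chr7:141447636-141447665, +): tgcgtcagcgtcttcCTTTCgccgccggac
Within these windows Rpl12, Rps12, Rps15a, Rplp2 and the paralog Rpl39l hold a motif, and Rpl10, Rpl10l and Rps4x hold none. A match is a description of letters and not of a functional tract.

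In Sertoli cell IP, the ribosomal protein genes were lower than in total RNA almost throughout. In Amh-cre, 57 of 61 genes were called lower and 1 (Rpl7l1) higher, where 23.2% of all genes were called lower and 51% higher. The median difference of the 61 genes was -0.53, against 0.12 over all genes. All 21 canonical small-subunit genes were called lower (median -0.69), as were 31 of 33 canonical large-subunit genes (median -0.51). Past a 2-fold difference as well there were 7 lower genes and 0 higher ones (3.94% and 1.1% of all genes). Of the 217 probe sets listed with the 61 genes, 213 were below 0 in this comparison, but probe sets of the same gene are not independent measures. Counted by gene, 38 of the 39 with several probe sets had the same sign in all of them. The canonical median per array was 10.88 to 11.84 in the 16 IP arrays and 11.78 to 12.42 in the 14 total arrays, so the ranges over all times overlapped slightly, while at each of the 7 times with both fractions every IP array lay below every total array.

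In germ cell IP, the family was divided. In Stra8-cre 18 genes were called higher and 30 lower (42.4% and 28.9% of all genes), with a median of -0.063 against 0.040 over all genes. In Ngn3-cre 9 were higher and 35 lower (31.5% and 24.1% of all genes), with a median of -0.17 against 0.054. Past 2-fold as well, Stra8-cre had 2 higher genes (Rpl10l and Rps4l; 3.84% of all genes) and 1 lower (Rps4x; 5.37%). Ngn3-cre had 1 higher (Rpl10l; 6.18% of all genes) and 0 lower (6.75%). Called lower in all 3 lines were 28 genes, and 9 were called higher in both germ cell lines. These joint counts were not made over all genes, and the shares of single lines do not give them. The 5 genes most raised in Stra8-cre IP were Rpl10l, Rps4l, Rpl39l, Rpl3l and Rpl8, of which the first 4 are paralogs.

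**Figure D1:**
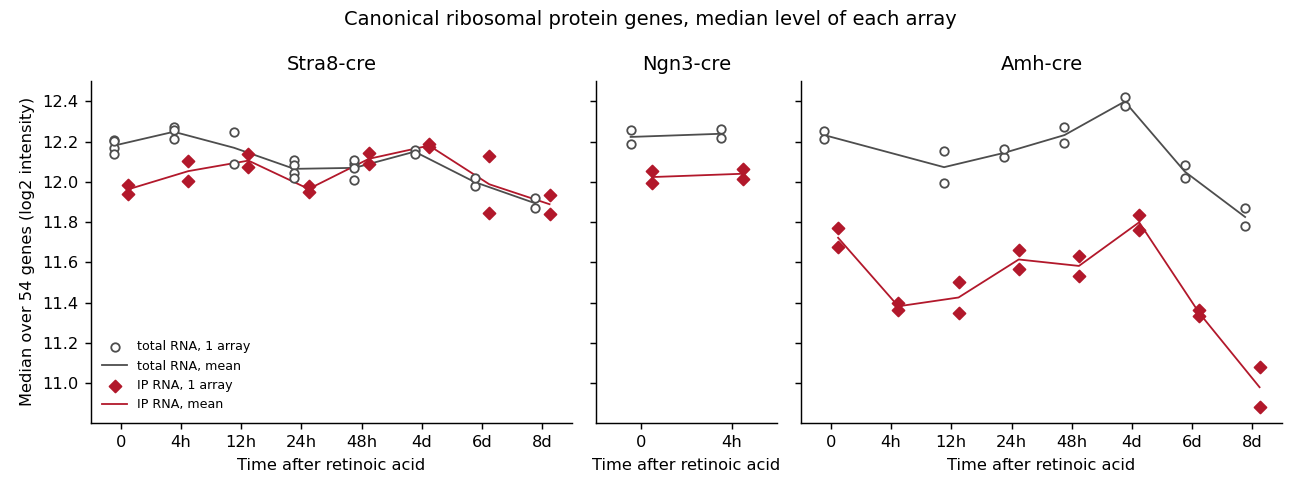
Median log2 intensity of the 54 canonical ribosomal protein genes on each array (y axis) against time after retinoic acid (x axis, evenly spaced labels) in Stra8-cre, Ngn3-cre and Amh-cre testes. Open circles are total RNA, filled diamonds IP RNA, and lines join group means. The Amh-cre IP arrays (10.88 to 11.84) reach up to the lowest of the Stra8-cre IP arrays (11.84 to 12.19), and both Amh-cre fractions are lowest at 8 d.

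The paralogs gave the widest separation between the cell types. Rpl10l, an autosomal intronless copy of Rpl10 expressed in the testis, ranged from 10.54 to 11.66 (median 11.42) over 16 Stra8-cre IP arrays and from 9.01 to 10.02 (median 9.64) over 23 total arrays. The ranges did not overlap. On the 4 Ngn3-cre IP arrays it was at 11.56, 11.54, 11.41 and 11.32, and on the 4 total arrays at 9.85, 9.73, 9.60 and 9.74. In Amh-cre IP it ranged from 7.85 to 8.68 (median 8.43) against 9.16 to 10.19 (median 9.74) in total RNA, so IP lay above total RNA in the germ cell lines and below it in Amh-cre, without overlap in any line. IP was 3.13-fold above total RNA in Stra8-cre (1.65 ± 0.057 log2, SE), 3.32-fold in Ngn3-cre (1.73 ± 0.12) and 2.43-fold below it in Amh-cre (-1.28 ± 0.065; limma, adjusted p of 2.81e-30, 2.51e-17 and 3.89e-23).

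Rpl39l, a copy of the exit-tunnel protein gene Rpl39, behaved likewise. It ranged from 9.75 to 10.22 (median 10.05) in Stra8-cre IP and from 8.47 to 9.53 (median 8.99) in total RNA. In Ngn3-cre it was at 9.92, 9.998, 9.88 and 9.76 in IP and at 8.99, 9.06, 8.86 and 8.97 in total RNA. In Amh-cre it was at 6.79 to 7.40 (median 6.99) in IP and 8.58 to 9.28 (median 9.11) in total RNA, the lowest IP level relative to total RNA of any of the 61 genes. The differences were 0.97 ± 0.060, 0.92 ± 0.13 and -1.99 ± 0.068, and again IP and total arrays did not overlap in any line.

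Rps4l, the autosomal relative of Rps4x, was raised in germ cells without a matching depletion in Sertoli cells. It lay between 11.49 and 12.12 (median 11.97) in Stra8-cre IP and between 10.40 and 11.51 (median 10.85) in total RNA, with the top total array just above the lowest IP array. In Amh-cre it lay between 10.69 and 11.16 (median 10.91) in IP and between 10.84 and 11.23 (median 11.01) in total RNA, and the ranges overlapped widely. The differences were 1.04 ± 0.046 in Stra8-cre, 0.93 ± 0.098 in Ngn3-cre and -0.15 ± 0.052 in Amh-cre, all called. Its second probe set gave 0.80, 0.58 and -0.25.

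The remaining paralogs differed less. Rpl3l, a copy of Rpl3 known from striated muscle, had a low signal (5.94 to 7.81 over both Stra8-cre fractions) and was called higher in Stra8-cre IP (0.40 ± 0.042) and Ngn3-cre IP (0.35 ± 0.088); in Amh-cre the difference was 0.084 ± 0.047 and was not called. Rpl7l1, a relative of Rpl7 by its symbol, was the sole member of the 61 called higher in all 3 lines, by 0.22 ± 0.025, 0.28 ± 0.053 and 0.22 ± 0.028. After quantile normalization its Amh-cre value was -0.024. Rps27l, a relative of Rps27 known as a p53 target, was called lower in all 3 over the times together, by -0.24 ± 0.036, -0.50 ± 0.076 and -0.20 ± 0.040, but these values depend on the time. Its Amh-cre difference lay between -0.097 and 0.18 at time 0, 12, 24 and 48 h and on the arrays labelled 4 d, and was -0.58 at 6 d and -1.04 at 8 d. In Stra8-cre it went from -0.58 at time 0 to 0.085 at 6 d and 0.22 at 8 d. Rpl32l was called lower in Amh-cre (-0.73 ± 0.043) and in neither germ cell line (-0.081 ± 0.038 and -0.17 ± 0.081). Of the 7 paralogs, 5 were called higher and 1 lower in Stra8-cre IP, the same numbers as in Ngn3-cre IP, and 1 higher and 5 lower in Amh-cre IP. The shares of all genes called higher and lower were 42.4% and 28.9% in Stra8-cre, 31.5% and 24.1% in Ngn3-cre, and 51% and 23.2% in Amh-cre.

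**Figure D2:**
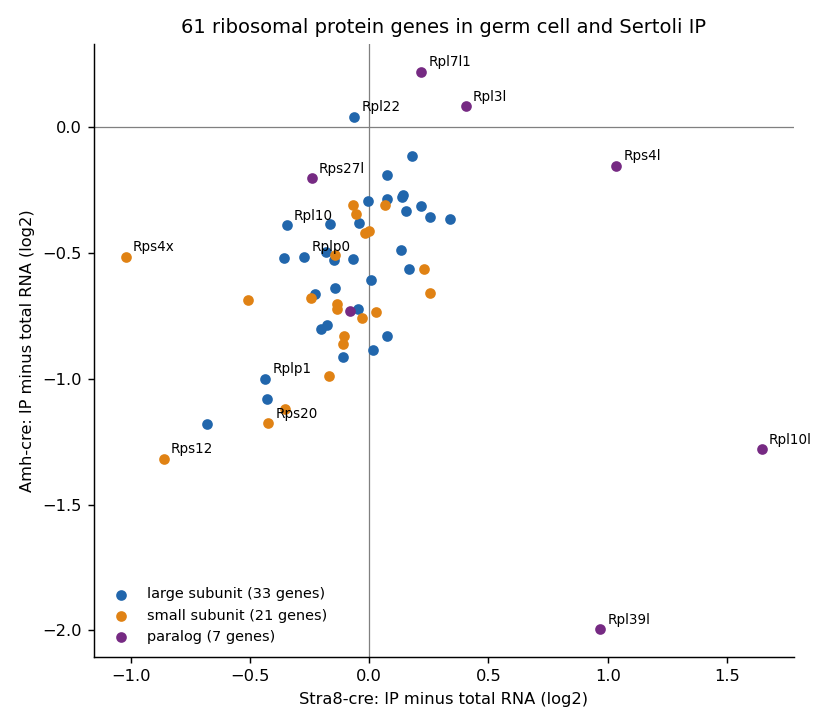
Log2 difference between IP and total RNA in Stra8-cre (x axis) and Amh-cre (y axis) for the 61 ribosomal protein genes, 1 point a gene, coloured by canonical subunit or paralog, with selected genes named. Most points lie below the horizontal line at 0; Rpl10l (1.65, -1.28) and Rpl39l (0.97, -1.99) lie far to the lower right and Rps4x (-1.02, -0.51) to the left.

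Among the X-linked members, Rps4x, a small-subunit protein gene, was the lowest in germ cell IP relative to total RNA. It ranged from 9.72 to 11.19 (median 10.48) in Stra8-cre IP and from 11.16 to 11.86 (median 11.59) in total RNA. The ranges met at their edges: both IP arrays at 8 d were below 9.8 (9.72 and 9.75), and 1 IP array at 12 h reached 11.19. In Ngn3-cre it was at 10.71, 10.75, 10.88 and 11.17 in IP and at 11.72, 11.79, 11.83 and 11.78 in total RNA, apart in each array. The differences were -1.02 ± 0.037 in Stra8-cre, -0.91 ± 0.079 in Ngn3-cre and -0.51 ± 0.042 in Amh-cre. Rpl10, the X-linked counterpart of Rpl10l and a large-subunit protein needed for joining of the subunits, was lower by a like amount in every line (-0.35 ± 0.022, -0.35 ± 0.046 and -0.39 ± 0.025). Rpl36a, a large-subunit protein gene, was lower by -0.11 ± 0.024, -0.25 ± 0.051 and -0.91 ± 0.027. All 9 of these X-linked differences were called. Of all genes, 28.9% were called lower in Stra8-cre, 24.1% in Ngn3-cre and 23.2% in Amh-cre.

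**Figure D3:**
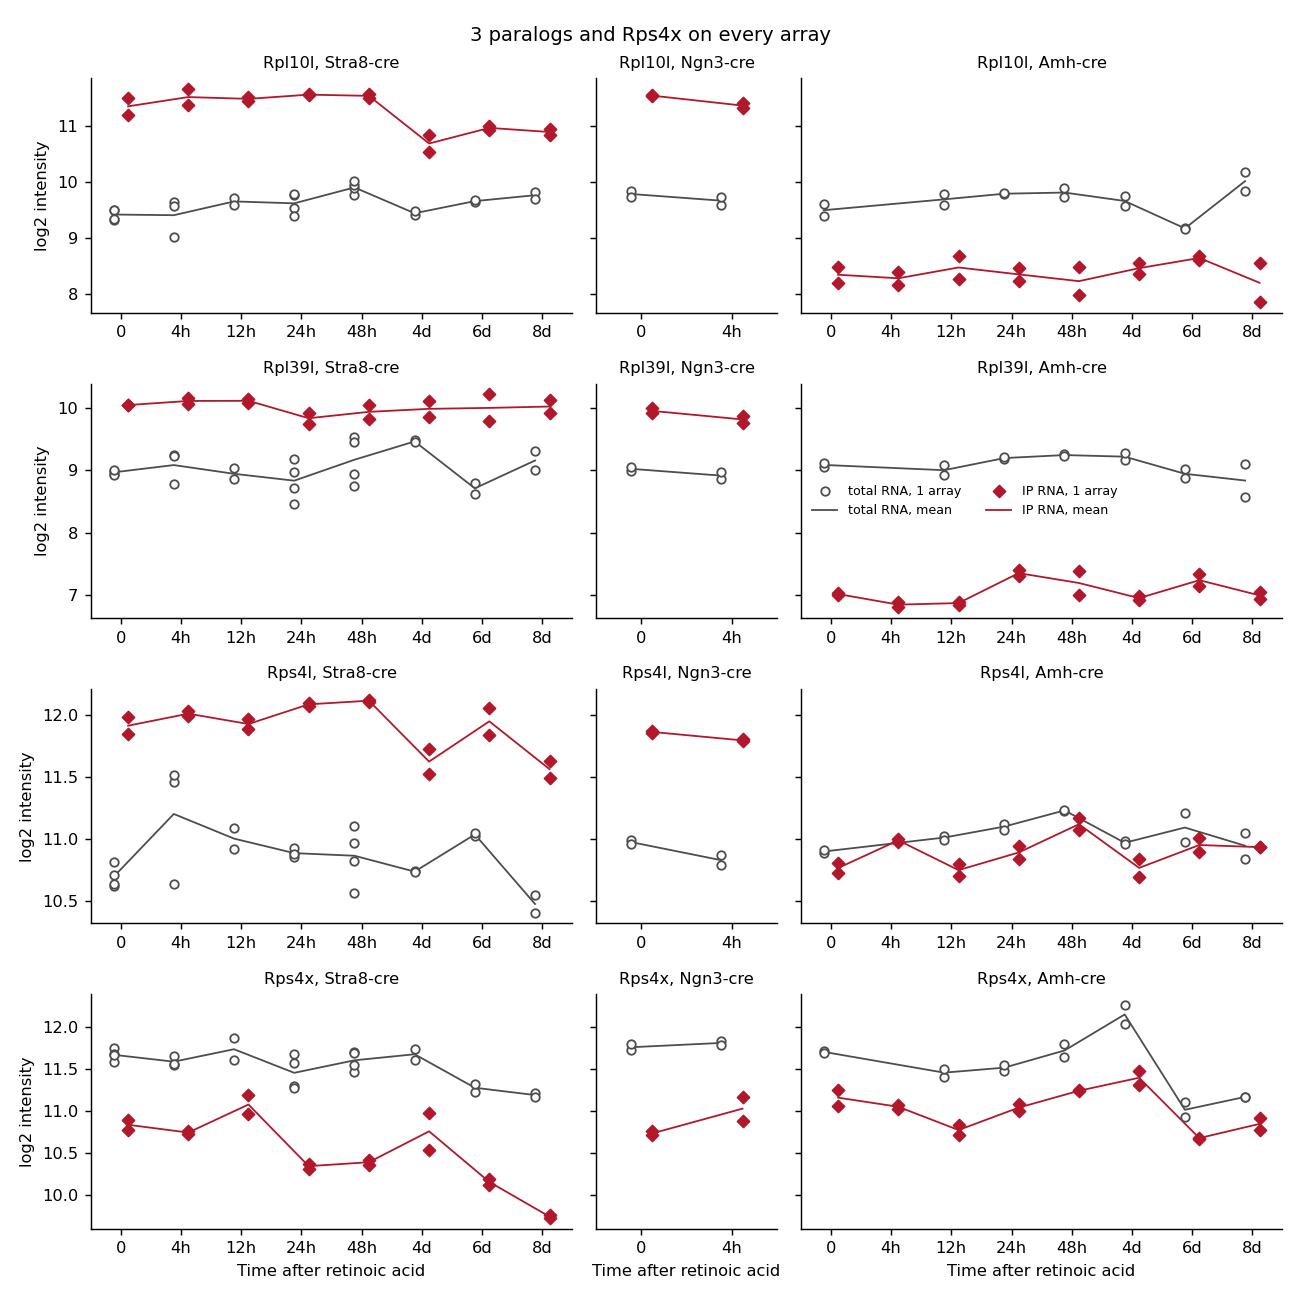
Log2 intensity of Rpl10l, Rpl39l, Rps4l and Rps4x (rows) on every array against time after retinoic acid in Stra8-cre, Ngn3-cre and Amh-cre testes (columns); open circles are total RNA, filled diamonds IP RNA and lines group means, and the y axes differ between rows. Rpl10l and Rpl39l are above total RNA in germ cell IP and below it in Sertoli IP at every time, and Rps4x in Stra8-cre IP is at its lowest, 9.72 and 9.75, at 8 d.

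The tagged gene and the stalk genes differed in how far IP lay from total RNA. Rpl22, which carries the HA tag, was at 9.10 to 9.47 in Stra8-cre IP and 9.11 to 9.60 in total RNA, and at 9.06 to 9.60 and 8.87 to 9.62 in Amh-cre, with wide overlap. Its differences of -0.063 ± 0.033 in Stra8-cre and 0.043 ± 0.038 in Amh-cre were not called, and that of -0.26 ± 0.071 in Ngn3-cre was. The probe set is not said to tell the tagged from the untagged allele. Rplp0, the scaffold of the stalk and a common reference gene, was at 12.61 to 13.07 (median 12.89) in Amh-cre IP and at 13.27 to 13.50 (median 13.36) in total RNA, with no overlap. Its differences were -0.27 ± 0.024, -0.30 ± 0.051 and -0.51 ± 0.027 in Stra8-cre, Ngn3-cre and Amh-cre, all called. Rplp1, its partner in the stalk, was lower by -0.44 ± 0.051, -0.54 ± 0.11 and -1.00 ± 0.058, all called. Rplp2 was called lower in Stra8-cre (-0.14 ± 0.047) and Amh-cre (-0.64 ± 0.053), with -0.14 ± 0.10 in Ngn3-cre not called. Its only probe set had a mean signal of 7.92, below the median over all genes (8.54). Rpsa was called lower in all 3 lines (-0.13 ± 0.039, -0.19 ± 0.082 and -0.70 ± 0.044).

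Several canonical genes of both subunits led the lower side in each line. Rps12, a small-subunit protein gene with 14 probe sets, was at 9.87 to 10.87 (median 10.67) in Amh-cre IP and at 11.31 to 12.13 (median 11.98) in total RNA, without overlap. Its differences were -0.86 ± 0.049, -0.92 ± 0.10 and -1.32 ± 0.056, and its probe sets gave -0.86 to -0.72 in Stra8-cre. Rpl12, of the base of the stalk, was lower by -0.68 ± 0.088, -0.79 ± 0.19 and -1.18 ± 0.10. Its only probe set had a mean signal of 8.12, below the median over all genes (8.54), and its Stra8-cre difference ran from 0.0029 at 4 h to -1.09 at 48 h. Rps29 was lower by -0.51 ± 0.041, -0.72 ± 0.087 and -0.69 ± 0.046. Rps15a differed by -0.35 ± 0.050 in Stra8-cre, -0.59 ± 0.11 in Ngn3-cre and -1.12 ± 0.057 in Amh-cre. Rps20, another small-subunit protein gene, was at 10.86 to 11.93 (median 11.70) in Amh-cre IP and at 12.53 to 13.01 (median 12.75) in total RNA, a difference of -1.18 ± 0.038, against -0.42 ± 0.033 in Stra8-cre. On the other side, Rpl8, a large-subunit protein gene, was the canonical gene most raised in Stra8-cre IP (0.34 ± 0.030), and was lower in Amh-cre IP (-0.36).

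The contrast of germ and Sertoli cells was tested directly. In Stra8-cre IP against Amh-cre IP, 57 genes were called higher and 1 lower (32.6% and 33.9% of all genes), with a median of 0.46 against -0.023 over all genes. Rpl39l was 7.77-fold higher in the germ cell IP (2.96 ± 0.064), Rpl10l 7.39-fold (2.89 ± 0.061) and Rps4l 2.00-fold (1.00 ± 0.049). Rps28 (0.97 ± 0.035) and Rps15a (0.90 ± 0.053) followed, and Rps4x was the gene called lower (-0.52 ± 0.039). Of the 61 genes, 18 were higher in every Stra8-cre IP array than in any Amh-cre IP array. How many of all genes were separated in this way was not counted, so this number has no background to stand against. In total RNA of the same lines, in which both cell types are present, 2 genes were called higher and 17 lower (9.42% and 8.55% of all genes), a larger share lower than of all genes. The median was -0.042, against 0.022 over all genes, with Rps3a1 (-0.59 ± 0.050), Rps21 (-0.39 ± 0.070), Rps4l (-0.22 ± 0.050), Rpl8 (-0.22 ± 0.032) and Rpl37a (-0.19 ± 0.037) lowest.

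Taking each line's total RNA into account, the difference between IP and total RNA was greater in Stra8-cre than in Amh-cre for 56 genes and smaller for 1 (30.1% and 32.8% of all genes), with a median of 0.45 against -0.065 over all genes. The largest values were those of Rpl39l (2.95 ± 0.094), Rpl10l (2.86 ± 0.090), Rps4l (1.22 ± 0.072), Rps3a1 (0.97 ± 0.073) and Rpl13 (0.96 ± 0.057). The value of Rps3a1 takes in its lower level in Stra8-cre than in Amh-cre total RNA, given above. Its levels on the IP arrays of these lines overlapped. Rps4x was the gene with the smaller difference (-0.53 ± 0.058). Rpl10 (0.037 ± 0.034) and Rpl22 (-0.093 ± 0.052) were not called. The genes called higher in Stra8-cre IP and lower in Amh-cre IP were 15, the 3 paralogs Rpl10l, Rpl39l and Rps4l and 12 canonical genes. How many of all genes were called in these opposite directions was not counted. The germ cell and Sertoli markers moved with this contrast (19 of 19 germ cell genes higher and 19 of 20 Sertoli genes lower), and their part in the ribosomal protein values was not tested.

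The same comparisons were made for other parts of the translation machinery, whose counts stand against the shares of all genes called higher and lower (42.4% and 28.9% in Stra8-cre, 31.5% and 24.1% in Ngn3-cre, 51% and 23.2% in Amh-cre). No test compared the lists with each other. All 50 of the ribosome biogenesis and nucleolus genes were called higher in Stra8-cre IP (median 0.81) and 46 of 50 in Ngn3-cre IP (median 0.80). In Amh-cre IP 26 were higher and 14 lower (median 0.11), near the shares of all genes. Rrp12, a factor for export of pre-ribosomes, was raised by 1.35 ± 0.040 in Stra8-cre and 1.67 ± 0.085 in Ngn3-cre. Heatr1, which acts in transcription and processing of the ribosomal RNA precursor, was raised by 1.24 ± 0.046 in Stra8-cre and lowered by -0.74 ± 0.052 in Amh-cre. Of 74 mitochondrial ribosomal proteins, 48 were higher and 11 lower in Stra8-cre IP (median 0.27), 30 and 14 in Ngn3-cre (median 0.13), and 41 and 11 in Amh-cre (median 0.20), the last again near the shares of all genes. Mrps22, a mitochondrial small-subunit protein gene, was raised by 1.22 ± 0.049 in Stra8-cre, and Mrps34 by 0.98 ± 0.052 in Amh-cre.

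Of 20 translation factors and other genes with TOP mRNAs, 11 were higher and 4 lower in Stra8-cre IP (median 0.082), 8 and 5 in Ngn3-cre IP (median 0.032), and 5 and 10 in Amh-cre IP (median -0.055). The Ngn3-cre counts were near the shares of all genes, and in Amh-cre more of the list was lower than of all genes. The elongation factor subunit gene Eef1d was raised by 0.63 ± 0.039 in Stra8-cre and 0.81 ± 0.082 in Ngn3-cre. Vim, an intermediate filament gene of somatic cells with a TOP mRNA, was lowered by -1.45 ± 0.051 in Stra8-cre. In Amh-cre the lowest were Nap1l1, a nucleosome assembly protein gene (-0.89 ± 0.048), the elongation factor subunit gene Eef1b2 (-0.72 ± 0.033) and Pabpc1, the poly(A)-binding protein gene (-0.48 ± 0.025). Among 18 regulators of TOP mRNAs and mTORC1 signalling, 11 were higher and 6 lower in Stra8-cre IP, 11 and 5 in Ngn3-cre IP, and 7 and 5 in Amh-cre IP. Mtor itself was higher by 0.87 ± 0.049 in Stra8-cre and 1.16 ± 0.10 in Ngn3-cre.

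**Figure D4:**
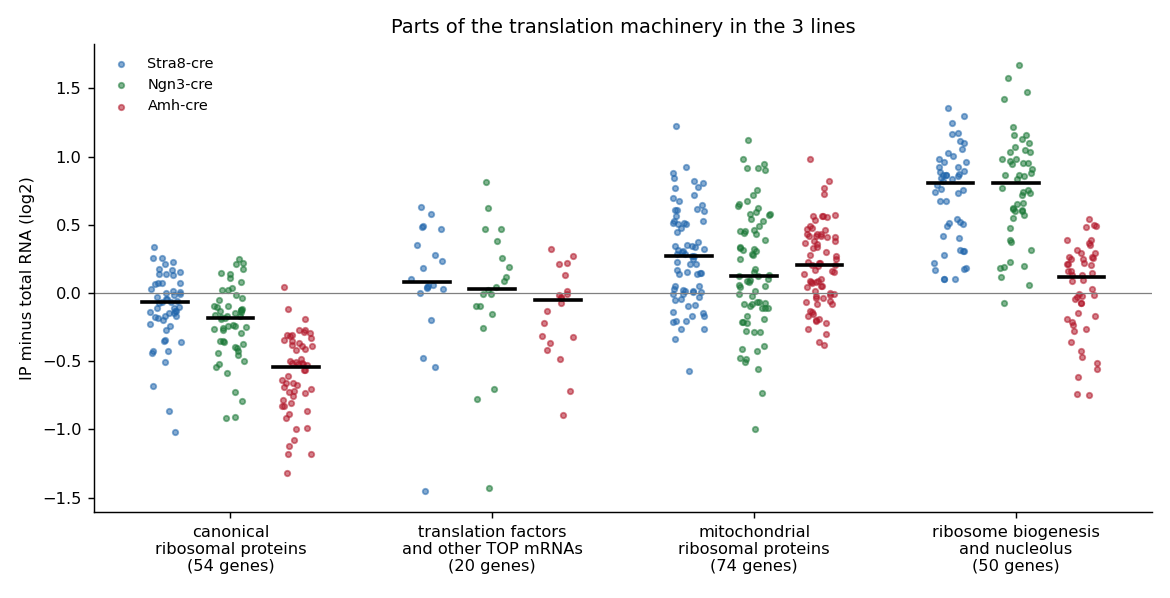
Log2 difference between IP and total RNA (y axis) for each gene of 4 lists (x axis), 1 point a gene, in Stra8-cre, Ngn3-cre and Amh-cre; black bars are medians, and points are spread sideways for visibility. The canonical ribosomal proteins have medians of -0.070, -0.18 and -0.54, and ribosome biogenesis genes 0.81, 0.80 and 0.11.

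Of the 8 other proteins with matching symbols, 6 were higher and 2 lower in Stra8-cre IP, 4 and 2 in Ngn3-cre IP, and 4 and 2 in Amh-cre IP. With 8 genes these counts are close to the shares of all genes in Amh-cre (51% and 23.2%). The shares were 42.4% and 28.9% in Stra8-cre and 31.5% and 24.1% in Ngn3-cre. The S6 kinase gene Rps6ka6 was raised in germ cell IP (1.12 ± 0.13 in Stra8-cre and 1.39 ± 0.27 in Ngn3-cre) and lowered in Amh-cre IP (-1.11 ± 0.15). Rps6kb2 was lowered in Stra8-cre (-0.35 ± 0.038) and Ngn3-cre (-0.48 ± 0.081), and Rps6kc1 was raised in Stra8-cre (0.33 ± 0.044) and Amh-cre (0.45 ± 0.050).

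Over time the median of the canonical genes was lowest at 8 d in both fractions of both lines, at -0.47 from time 0 in Amh-cre IP, -0.34 in Amh-cre total RNA, -0.24 in Stra8-cre total RNA and -0.11 in Stra8-cre IP. The differences between these courses in the 2 lines were not tested. For the courses of each fraction, the shares of all genes are of genes called in either direction, without a split above and below time 0. In Amh-cre IP, 53 of 61 genes were called in the test over all times (53.3% of all genes), of which 49 had their largest difference from time 0 below it and 4 above it. At 8 d 51 of 54 canonical genes were below their time 0 mean. Small-subunit genes had a median of -0.56 and large-subunit genes of -0.44. The course was not steady: the canonical median stood at -0.24 at 12 h, -0.035 at 24 h, 0.044 on the arrays labelled 4 d and -0.21 at 6 d. The canonical median per array was 11.40 and 11.36 on the IP arrays labelled 4 h and 11.53 and 11.63 at 48 h, against 11.77 and 11.68 at time 0. In Amh-cre total RNA, 51 genes were called (54.4% of all genes), 37 with the largest difference below time 0 and 14 above it. There 49 of 54 canonical genes were below time 0 at 8 d, and the canonical median was 0.15 on the arrays labelled 4 d.

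In Stra8-cre total RNA, 56 genes were called (65.9% of all genes), 42 with their largest difference below time 0 and 14 above it. In total RNA, fewer cells of a type and less RNA per cell cannot be told apart. In Stra8-cre IP, 52 genes were called (57.8% of all genes), evenly divided, 28 above and 24 below time 0. The canonical median was within 0.12 of time 0 throughout, at 0.12 at 4 d and -0.11 at 8 d. In the same arrays genes of meiotic prophase rose, 19 of 20 in Stra8-cre IP and 19 of 20 in each total RNA course, with 1 lower in Stra8-cre total RNA. The mean log2 level of this list in Stra8-cre IP went from 9.60 and 9.30 at time 0 to 11.31 and 11.25 at 8 d, and in Amh-cre IP from 7.63 and 7.71 to 9.09 and 9.25. Its part in the ribosomal protein values was not tested.

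**Figure D5:**
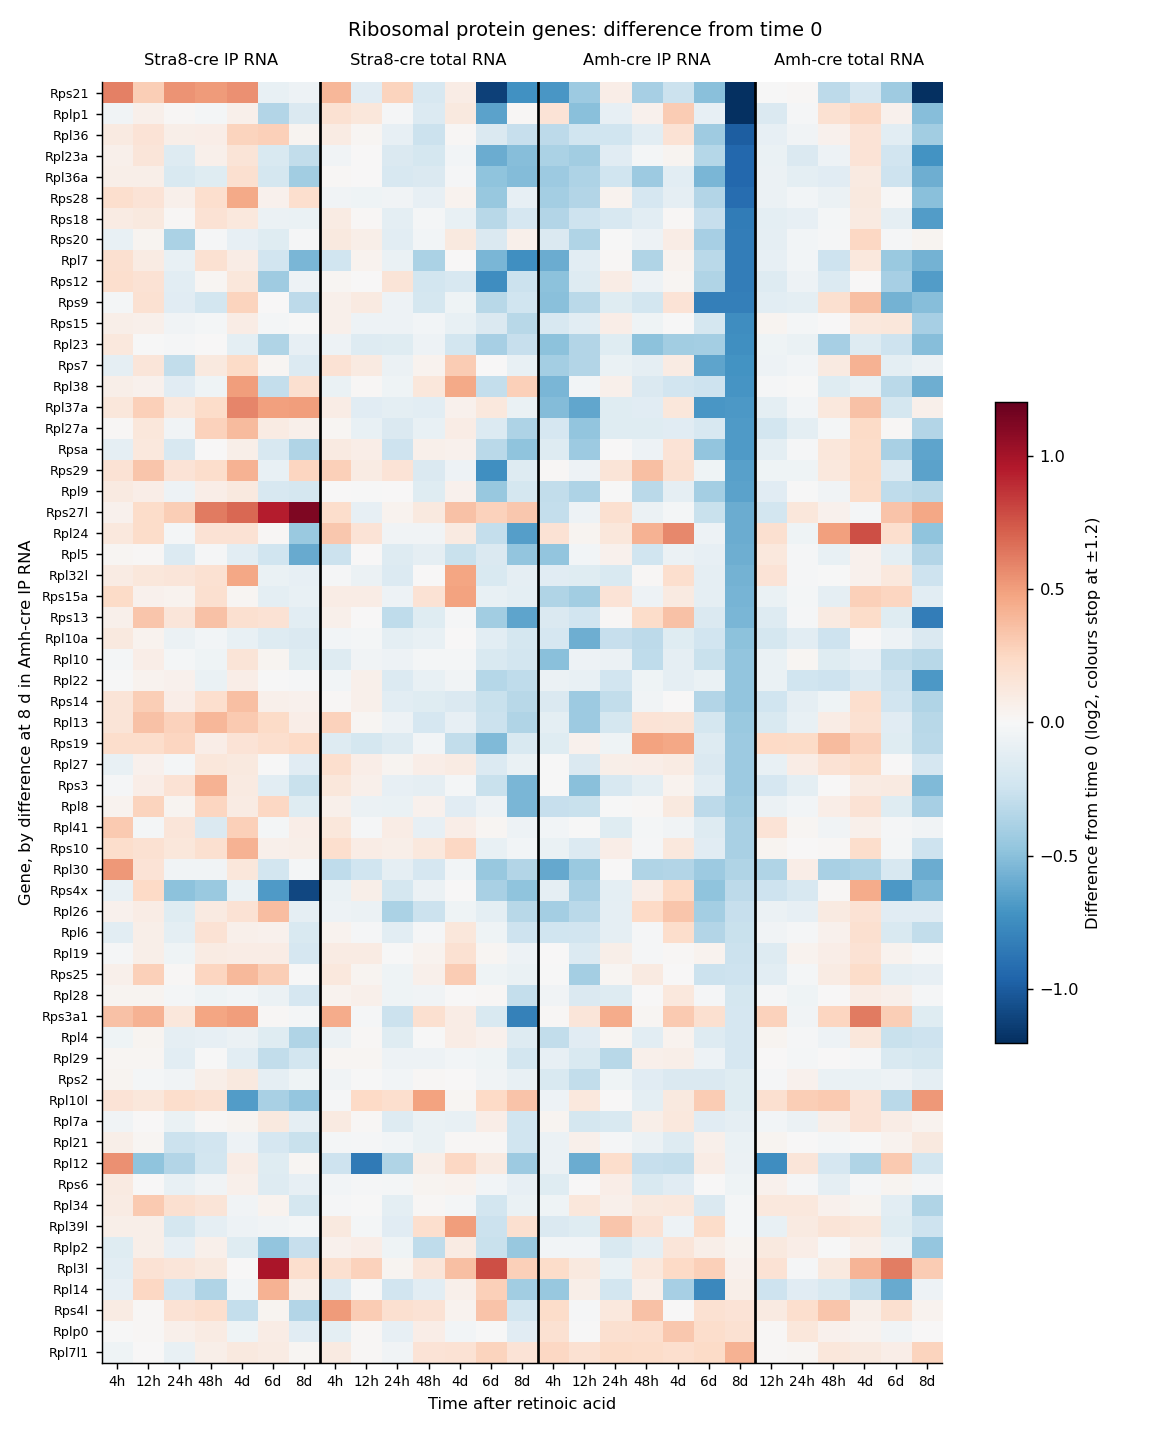
Log2 difference from time 0 of the 61 ribosomal protein genes (rows, ordered by the Amh-cre IP value at 8 d) at each later time (columns) in Stra8-cre and Amh-cre IP and total RNA; red is above and blue below time 0, and colours stop at 1.2 in either direction. The 8 d column of Amh-cre IP is blue for most genes (canonical median -0.47), while Rps27l in Stra8-cre IP rises to 1.12.

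Single genes moved further than the family. Rps21, a small-subunit protein gene, was at 10.75 and 10.56 at time 0 in Amh-cre IP and at 9.18 and 9.16 at 8 d, after values of 9.92 to 10.75 in between. Its fall at 8 d was -1.48 ± 0.20 in Amh-cre IP and -1.46 ± 0.20 in Amh-cre total RNA (11.29 and 11.36 to 9.72 and 9.9996). Rplp1 went from 12.31 and 12.24 to 11.08 and 10.88 in Amh-cre IP (-1.30 ± 0.15). Rpl36 (-0.98 ± 0.097), Rpl23a (-0.95 ± 0.10) and Rpl36a (-0.94 ± 0.072), all of the large subunit, completed the 5 largest falls there, all at 8 d. In Amh-cre total RNA the largest after Rps21 were Rps13 (-0.83 ± 0.12 at 8 d), Rpl24 (0.77 ± 0.13 on the arrays labelled 4 d), Rpl12 (-0.74 ± 0.27 at 12 h) and Rpl23a (-0.72 ± 0.10 at 8 d). The call of Rpl12 was lost without total 12 h replicate 2 (-0.54, adjusted p of 0.126).

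In Stra8-cre IP the largest changes were those of paralogs and of Rps4x. Rps27l rose from 11.13 and 10.97 at time 0 to 11.62 and 11.73 at 48 h and 12.16 and 12.19 at 8 d (1.12 ± 0.11). In Amh-cre IP it fell instead, from 11.75 and 11.68 to 11.07 and 11.16 at 8 d (its largest difference, -0.60 ± 0.11); the difference between the 2 courses was not tested. Rps4x went from 10.77 and 10.89 to 10.18 and 10.12 at 6 d and 9.72 and 9.75 at 8 d (-1.10 ± 0.11). In Stra8-cre total RNA its largest difference was -0.48 ± 0.097, also at 8 d. Rpl3l rose at 6 d, from 6.84 and 6.65 to 7.81 and 7.64 (0.98 ± 0.12), with 7.05 and 6.84 at 8 d. Rpl10l fell from 11.51 and 11.20 to 10.54 and 10.84 at 4 d (-0.67 ± 0.17) and was at 10.95 and 10.85 at 8 d. The 4 d arrays include the one high in Sertoli markers.

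Rps21 was called in Stra8-cre IP as well (0.60 ± 0.20 at 4 h), but its replicates at 6 d were at 10.93 and 9.59. Without 6 d replicate 1 its largest difference was -0.76, at 6 d, so 1 array decides its direction. The same 2 arrays differed in Rplp1 (12.77 and 11.84) and in Rps12 (11.02 and 10.18). In Stra8-cre total RNA the largest differences were those of Rps21 (-1.12 ± 0.17 at 6 d), Rpl12 (-0.85 ± 0.23 at 12 h), Rps3a1 (-0.81 ± 0.12 at 8 d), Rpl3l (0.77 ± 0.11 at 6 d) and Rps12 (-0.75 ± 0.13 at 6 d). The paralogs went the other way from the canonical genes there. All 7 were called with their largest difference above time 0, by 0.27 to 0.77. Of 54 canonical genes, 42 were called below it and 7 above. No test compared the 2 sets, and the share of all genes called in this course is not split by direction.

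The members fixed for every comparison filled in the picture at 8 d. Rpl36a was called lower in each of the 4 courses, with its largest difference at 8 d in all of them (-0.41 ± 0.072 and -0.52 ± 0.062 in Stra8-cre IP and total RNA, -0.94 ± 0.072 and -0.59 ± 0.072 in Amh-cre). Rpsa likewise fell most at 8 d in all 4 (-0.36 ± 0.12, -0.49 ± 0.10, -0.68 ± 0.12 and -0.64 ± 0.12). Rpl22 was not called in Stra8-cre IP (0.078 ± 0.10) and was lower in Stra8-cre total RNA (-0.34 ± 0.087 at 6 d), Amh-cre IP (-0.47 ± 0.10 at 8 d) and Amh-cre total RNA (-0.69 ± 0.10 at 8 d). Rplp0 was not called in Stra8-cre IP or Amh-cre total RNA. It moved by -0.14 ± 0.063 at 8 d in Stra8-cre total RNA and by 0.33 ± 0.073 on the Amh-cre IP arrays labelled 4 d.

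Biogenesis genes changed in both directions over time, and their courses were not tested against those of the ribosomal proteins. In Stra8-cre total RNA 33 of 50 were called with their largest difference above time 0 and 11 below. In Amh-cre IP these numbers were 22 and 19, in Amh-cre total RNA 20 and 10, and in Stra8-cre IP 14 and 16. Over all genes, 65.9%, 53.3%, 54.4% and 57.8% were called in these courses. Ltv1, a factor of small-subunit assembly, rose in Stra8-cre IP (1.13 ± 0.19 at 8 d) and in both total RNA courses (0.96 ± 0.16 and 0.92 ± 0.19 at 8 d). Tsr1, another assembly factor of the small subunit, fell in Stra8-cre IP (-1.02 ± 0.12 at 8 d). Mtor rose in total RNA of both lines (1.08 ± 0.13 in Stra8-cre and 0.90 ± 0.15 in Amh-cre at 8 d) and in Amh-cre IP (1.04 ± 0.15 at 8 d). Among the other proteins with matching symbols, the kinase genes Rps6ka6 (2.15 ± 0.39 at 6 d) and Rps6ka5 (1.71 ± 0.19 at 8 d) rose in Stra8-cre IP.

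Whether the IP course of Stra8-cre differed from that of its total RNA was tested gene by gene. Of the 61 genes, 22 were called (36.4% of all genes), so the share called was that of all genes. The largest difference was above 0 (IP gaining on total RNA) in 17 and below it in 5, against 3740 and 3527 over all genes. The canonical IP minus total median went from -0.15 at time 0 to 0.048 at 6 d and -0.031 at 8 d, while in Amh-cre it stayed between -0.68 and -0.48 at all 7 times. The 2 Stra8-cre IP arrays at 6 d disagreed on this. Their canonical medians were 12.13 and 11.85, on either side of the total arrays (11.98 and 12.02), so the 6 d value depends on replicate 1. Rps27l gained 0.80 ± 0.14 by 8 d and Rps3a1 0.79 ± 0.18, and Rpl10l lost ground (-0.81 ± 0.23 at 8 d). Rps21 (1.03 ± 0.26 at 6 d) and Rpl30 (0.83 ± 0.20 at 4 h) were called too, but each lost its call without single arrays: Rps21 without Stra8-cre IP 0 replicate 1 or total 6 d replicate 2 (adjusted p of 0.0742 and 0.101), and Rpl30 without either IP 4 h replicate or total 4 h replicate 2 or 3 (adjusted p of 0.052 to 0.113). With the spread estimated from the compared groups alone 10 genes were called, and without the 3 total RNA arrays of narrow spread 42 were, so this count depends on the arrays used.

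At 4 h after retinoic acid, the Ngn3-cre IP arrays showed little movement of the family: 0 genes were called higher and 1 lower (1.58% and 0.471% of all genes), and 3 had an unadjusted p under 0.05. The gene was Rps27l, at 11.34 and 11.13 at time 0 and at 10.92 and 10.80 at 4 h (-0.37 ± 0.11, adjusted p of 0.0487). Its call was lost when Ngn3-cre IP 0 replicate 1 was left out, and also without either 4 h replicate (adjusted p of 0.777, 0.117 and 0.596). In Ngn3-cre total RNA 0 of the 61 genes were called by limma (0.943% of all genes higher and 0.231% lower), and 1 had an unadjusted p under 0.05.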

How the data were processed

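Per the submitters' processing notes, the authors normalized the arrays with RMA, and the deposited values are linear intensities; log2 was taken of them. Per the labels' protocols, RNA was extracted with an RNeasy kit, amplified to cDNA and labelled with biotin. Of 28853 probe sets, the 21789 listed with 1 gene were used, and the probe set with the highest mean over all arrays stood for each gene. A mean per group was fitted over all 77 arrays with limma 3.58.1 (lmFit, eBayes with trend; R 4.3.3), and p-values were adjusted by Benjamini-Hochberg over 19938 genes. Time courses were tested with an F test, and each gene's largest difference from time 0 is given. The members and gene lists were chosen with earlier results of these data known. Named are Rpl22, the stalk genes, Rpsa, paralogs and X-linked members, for each direction the 5 called members that differed most (5 in all for courses), and up to 3 called genes of other lists. Same-numbered replicates deviated together in 7 of 7 Amh-cre pairs (correlation 0.11 to 0.58), both Ngn3-cre pairs and 4 of 8 Stra8-cre pairs. The fitting code was tested on simulated data. The number of arrays limits the precision.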

Additional observations from a re-analysis of the deposited data

Results flagged for a closer look

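In the Stra8-cre total RNA groups of 4 arrays, 1 array lay far from the others in 3 of 81 sets of values tested, where chance gives about 1 in 20. Rpl12 at 48 h was at 8.44 in replicate 1 and at 8.79 to 8.83 in the others, a gap of 0.877 of the range. Rps12 at 48 h was at 11.57 in replicate 3 and at 11.86 to 11.90 in the others (0.898 of the range). Rps21 at 24 h was at 10.87 in replicate 2 and at 11.17 to 11.23 in the others (0.855 of the range).

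In 15 genes the difference between IP and total RNA was called in opposite directions in Stra8-cre (higher) and Amh-cre (lower). The test of the difference between the lines was past the threshold for each. The share of all genes with such opposite calls was not counted. The paralogs had the largest differences between the lines: 2.86 for Rpl10l, 2.95 for Rpl39l and 1.22 for Rps4l. The canonical small-subunit genes were Rps3a1 (0.97) and Rps3 (0.83). The value of Rps3a1 takes in a difference in total RNA, where Rps3a1 was lower in Stra8-cre than in Amh-cre. Its levels on the IP arrays of these lines overlapped, while those of Rps3 did not. The canonical large-subunit genes were Rpl6 (0.76), Rpl8 (0.73), Rpl24 (0.66), Rpl34 (0.61), Rpl4 (0.51), Rpl5 (0.45), Rpl27 (0.45), Rpl7a (0.38), Rpl7 (0.38) and Rpl19 (0.28). All are on the log2 scale.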

How the results depend on the processing

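Median centring of each array gave 3 higher genes and a median of -0.39 in Amh-cre IP against total RNA, 4 lower genes in Stra8-cre against Amh-cre IP, and 3 lower genes and a median of 0.36 in their difference of IP minus total. Quantile normalization gave 0 higher genes and a median of -0.73 in Amh-cre IP, a median of 0.64 for the difference between lines, and turned Rpl7l1 in Amh-cre to -0.024 (adjusted p of 0.34, limma). With the compared groups alone, Amh-cre IP had 2 higher genes, Ngn3-cre IP at 4 h had 0 lower genes, and the Stra8-cre course in IP minus total had 10 called genes. Under that setting 5 named members lost their call: Rps27l in Ngn3-cre IP at 4 h (adjusted p of 0.0981, limma), Rps21 in the Stra8-cre IP course (0.0993), Rpl12 in the Stra8-cre total RNA course (0.127), and Rps21 and Rpl30 in the Stra8-cre course in IP minus total (0.2 and 0.201). Without the 3 arrays of narrow spread, chosen after seeing the data, the course in IP minus total had 42 called genes, and with 1 array left out 15 to 32. With 1 array left out, 1 to 2 genes were lower in Stra8-cre against Amh-cre IP and 1 to 2 in their difference of IP minus total, 0 to 1 in Ngn3-cre IP at 4 h, and Rps21 in the Stra8-cre IP course was at -0.76 to 0.68. With the replicate block, Stra8-cre IP against total RNA had 18 higher and 31 lower genes and Amh-cre 1 and 57, and no count moved by over 1.5 times. The cause of these shifts was not tested. Averaging the probe sets within genes, leaving out the lowest 30% of genes, and leaving out the Amh-cre arrays labelled 4 h and 4 d kept the counts recomputed under them within 1.5 times and the named members still tested on their side of the threshold.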
